A study of Nicotiana tabacum with 6 samples.

Results

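The loci described here are the AP2-like, PLETHORA and AINTEGUMENTA-like transcription factors of tobacco explants, compared after 2 weeks of culture on 0.5 or 0.1 mg/L NAA, the synthetic auxin naphthaleneacetic acid. They were chosen by the words of the protein match that the deposited table gives for each locus, a rule that uses no expression value. A locus was taken when its match was an AP2-like ethylene-responsive transcription factor, a floral homeotic protein APETALA 2, or a transcription factor with AP2/ERF and B3 domains. This gave 42 loci of 39825. Their matches name PLT2 (3 loci), AIL1 (4 loci), AIL5 (2 loci), AIL6 (4 loci), ANT (6 loci), TOE3 (5 loci), APETALA 2 (8 loci) and RAV1 (1 locus), and a further 9 loci are named after the Arabidopsis genes At1g16060 (3 loci), At1g79700 (4 loci) and At2g41710 (2 loci). No locus was named after BBM or SMZ. The 42 loci lie on 18 chromosomes, and the matching proteins are of Nicotiana attenuata (21 loci), N. sylvestris (13 loci), N. tabacum (4 loci) and N. tomentosiformis (4 loci).

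RNA-seq was available as 3 libraries of explants at 0.5 mg/L NAA and 3 libraries of explants at 0.1 mg/L NAA, with about 80 explants harvested for each treatment. By the study's methods its tobacco induction medium also held the cytokinin 6-benzyladenine, kanamycin and Timentin. The study cultured cotyledon explants both with infection by Agrobacterium tumefaciens carrying an editing construct and, for its morphological work, without it. Whether the sequenced explants were infected is not stated. The sample labels name the plant N. tabacum and the study N. benthamiana, and the loci are those of the N. benthamiana genome Niben261. No source says whether the 3 libraries of a treatment came from separate cultures, so the p-values measure the spread between these libraries, which may be technical.

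AP2-type factors are a plant family that bind DNA through a domain first described in the floral regulator APETALA2. In Arabidopsis, the PLETHORA and AINTEGUMENTA-LIKE members (PLT2, AIL1, AIL5, AIL6) maintain root and shoot meristems and act downstream of auxin, and their levels shape root stem cell identity, the position of new organs and the competence of callus to regenerate. AINTEGUMENTA (ANT) prolongs cell proliferation in growing organs. APETALA2 and TARGET OF EAT (TOE) genes, whose mRNAs are targets of the microRNA miR172, set floral organ identity and hold back flowering. RAV factors carry a B3 domain beside the AP2 domain, and RAV1 is known in Arabidopsis as a repressor of growth and flowering.

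Levels are given as FPKM (fragments relative to the length of the gene and to all fragments of its library), so they can be set side by side between loci. Differences were tested with limma on log2(FPKM + 1) wherever the mean of the 6 libraries was at least 0.5 FPKM, and a locus passed the test when its Benjamini-Hochberg adjusted p, taken over the 32443 loci tested, was under 0.05. Fold changes are 0.5 over 0.1 mg/L NAA, and since 1 FPKM is added before the log2 is taken, they are smaller than the ratio of levels at weak loci. With 3 libraries against 3, an exact two-sided permutation test of 1 locus could not go below p = 0.1, so the model fitted across all loci was used.

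The libraries differed in more than these factors. The FPKM of all loci gave totals of 986722 to 1015420 at 0.5 mg/L NAA, against 1140994 to 1155639 at 0.1 mg/L NAA. Replicate 3 at 0.1 mg/L NAA was the shallowest, with an estimated relative depth of 0.745. It listed 3983 loci at 0, where the other 5 libraries listed 3311 to 3528. Markers of green mesophyll (chlorophyll a-b binding proteins and the small subunit of Rubisco) summed to 2859.5 to 3850.4 FPKM at 0.5 mg/L NAA and to 7631.8 to 8442.4 FPKM at 0.1 mg/L NAA, and 39 of 46 tested loci were lower and 0 were higher. B-type cyclins, markers of dividing cells, summed to 415.3 to 516.8 FPKM at 0.5 mg/L NAA and to 763.8 to 786.3 FPKM at 0.1 mg/L NAA. Of 18 tested loci, 5 were lower and 0 higher (4 lower and 3 higher when all libraries were brought to equal totals). Over all loci tested, 20.2% were lower and 21.7% higher, and with equal totals 12.2% were lower and 34.5% higher. The difference in the sum came mostly from the cyclin-B1-2-like loci. The highest of these, Niben261Chr16g0509029, had a mean of 146.4 FPKM at 0.5 mg/L NAA and 284.5 FPKM at 0.1 mg/L NAA. The other 13 tested loci of the list did not pass. The xylem cysteine proteinases summed to 127.4 to 199.1 FPKM and 224.8 to 233.7 FPKM in the same order, and both tested loci were lower (0 with libraries rescaled). Casparian strip membrane proteins, which mark root endodermis, summed to 4.35 to 14.5 FPKM at 0.5 mg/L NAA and to 37.2 to 38.6 FPKM at 0.1 mg/L NAA, mostly from 1 locus (Niben261Chr16g0974012), which gave 2.94 of the 4.35 FPKM in the lowest library, while the other 7 stayed at or under 1.42 FPKM. In bulk tissue, fewer cells of a type and less RNA per cell cannot be told apart, and the part of these shifts in the results below was not tested.

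Most of the factors differed little between the treatments, and 1 locus, the RAV1-like gene, stood far from the others. Of the 42 loci, 29 reached the minimum level and were tested. At 0.5 mg/L NAA, 6 were higher and 4 were lower by an adjusted p under 0.05, and 19 did not pass. The share that passed was 34.5% of the tested members, against 41.9% of all loci tested. In the higher direction it was 20.7% of members against 21.7% of all loci, and in the lower direction 13.8% against 20.2%. The members are therefore near or under the background in each direction. Of the higher members, Niben261Chr04g0332014 and Niben261Chr05g1171018 had means of 0.477 and 0.257 FPKM at 0.1 mg/L NAA, under the minimum. They reached it only through the libraries at 0.5 mg/L NAA. With a minimum of 1 FPKM, 4 members were higher and 4 lower, of 27 tested.

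Only the RAV1-like locus also changed by 1 or more on the log2 scale, where 5.86% of all loci tested did (3.24% higher and 2.62% lower). The median log2 fold change was -0.13 over the 29 members and 0.02 over all loci. In 9 members every library at 0.5 mg/L NAA was above every library at 0.1 mg/L NAA, and in 8 every one was below. Over all loci tested, 28.8% were separated upward and 25.9% downward, 54.7% in all.

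**Figure D1:**
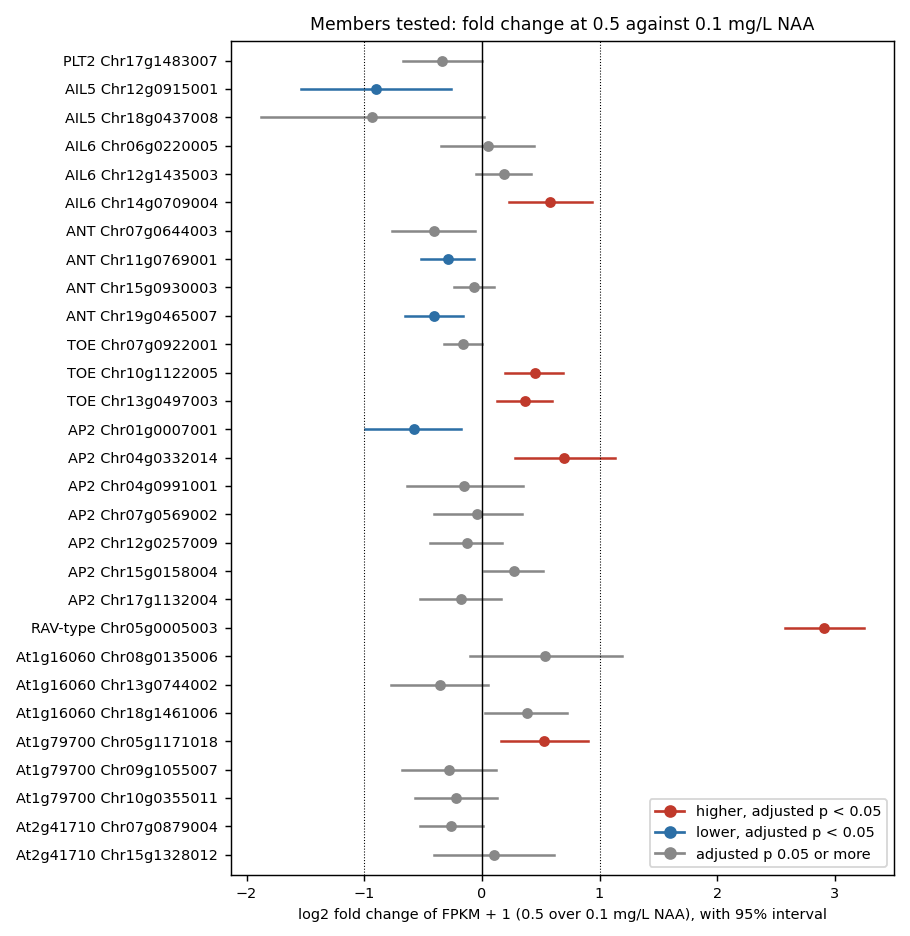
Log2 fold change of FPKM + 1 (0.5 over 0.1 mg/L NAA, horizontal axis) for each of the 29 tested loci, with the 95% interval of the limma fit as a line; red loci were higher and blue loci lower with an adjusted p under 0.05, and dotted lines mark a change of 1. The RAV1-like locus lies at 2.91, and all other loci lie between -0.93 and 0.70.

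The RAV1-like locus Niben261Chr05g0005003, on chromosome 5, was the most highly expressed of the 42 loci at 0.5 mg/L NAA and only the sixth at 0.1 mg/L NAA. Its level was 82.8, 123.4 and 116.5 FPKM in the libraries at 0.5 mg/L NAA, against 13.3, 13.1 and 13.3 FPKM at 0.1 mg/L NAA. The libraries at 0.1 mg/L NAA were almost equal, those at 0.5 mg/L NAA spread widely with replicate 1 lowest, and the treatments were far apart. The means were 107.6 ± 21.7 FPKM at 0.5 mg/L NAA and 13.2 ± 0.115 FPKM at 0.1 mg/L NAA (SD, n = 3 each), a ratio of 8.13. The log2 fold change of Niben261Chr05g0005003 was 2.91 (SE 0.14, 95% interval 2.58 to 3.25, adjusted p = 5.6e-05 in limma), the 37th largest of 32443 loci. Over 14 other settings of the analysis it stayed between 2.80 and 3.09. The table's gene ontology terms for this locus include negative regulation of flower development and lateral root development.

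This locus also changed the make-up of the family's total. The FPKM of all 42 loci summed to 393.2, 413.2 and 379.7 at 0.5 mg/L NAA, against 310.8, 307.6 and 330.7 at 0.1 mg/L NAA. The RAV1-like locus held 21.1%, 29.9% and 30.7% of that sum at 0.5 mg/L NAA, against 4.27%, 4.26% and 4.03% at 0.1 mg/L NAA. Without it the other 41 loci summed to 310.4, 289.8 and 263.1 FPKM at 0.5 mg/L NAA and to 297.5, 294.5 and 317.4 FPKM at 0.1 mg/L NAA, and the treatments overlapped.

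Among the loci chosen here, the PLETHORA and AINTEGUMENTA-LIKE names did not move as a group. Of 13 such loci, 6 were tested, of which 1 AIL6 locus was higher, 1 AIL5 locus was lower and 4 did not pass. The set is not complete, since the loci that the study lists as PLT3 and PLT6 were not selected by the words used here. The study reports PLETHORA genes as lower at the higher NAA level in its libraries of later stages. Those loci and stages were not examined here. PLT2, which in Arabidopsis maintains the root stem cell niche, was measured above the minimum at 1 of 3 loci, Niben261Chr17g1483007 on chromosome 17. It had 1.82, 2.12 and 1.81 FPKM at 0.5 mg/L NAA, against 2.52, 3.28 and 2.31 FPKM at 0.1 mg/L NAA. Each library at 0.5 mg/L NAA was below each library at 0.1 mg/L NAA, but the log2 fold change of -0.34 (SE 0.14, 95% interval -0.67 to -0.00) did not pass in limma (adjusted p = 0.096).

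AIL5, known as PLETHORA5 in Arabidopsis, acts with AIL6 in the formation of lateral roots and the placing of organs at the shoot apex. Both AIL5 loci had their fold change in the lower direction, with wide scatter at 0.5 mg/L NAA. Niben261Chr12g0915001, on chromosome 12, had 3.74, 5.17 and 1.71 FPKM at 0.5 mg/L NAA, against 6.60, 7.29 and 7.16 FPKM at 0.1 mg/L NAA. The treatments did not overlap, and the log2 fold change was -0.90 (SE 0.27, adjusted p = 0.033 in limma). The call was lost without any 1 of replicates 1, 2 and 3 at 0.1 mg/L NAA (adjusted p = 0.0777, 0.0948 and 0.0893 in limma) and with every library rescaled to the same total (log2 fold change -0.73, adjusted p = 0.0549). The second AIL5 locus, Niben261Chr18g0437008 on chromosome 18, had 1.27, 4.91 and 0.82 FPKM at 0.5 mg/L NAA, against 4.04, 4.02 and 5.69 FPKM at 0.1 mg/L NAA. Replicate 2 at 0.5 mg/L NAA reached the range of the other treatment while replicates 1 and 3 lay well below it, and the locus did not pass (log2 fold change -0.93, SE 0.41, adjusted p = 0.10 in limma). With that replicate left out, the fold change was -1.44 on the log2 scale (adjusted p = 0.0019 in limma).

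AIL6, known as PLETHORA3, was detected above the minimum at 3 of 4 loci. The most weakly expressed of them, Niben261Chr14g0709004 on chromosome 14, was higher at 0.5 mg/L NAA, with 1.95, 2.09 and 2.76 FPKM there, against 1.00, 1.17 and 1.35 FPKM at 0.1 mg/L NAA. The treatments did not overlap (log2 fold change 0.58, SE 0.15, adjusted p = 0.019 in limma). The call of Niben261Chr14g0709004 was lost without replicate 1 or 2 at 0.1 mg/L NAA (adjusted p = 0.0676 and 0.057 in limma) and without replicate 3 at 0.5 mg/L NAA (adjusted p = 0.0558). The most highly expressed, Niben261Chr12g1435003, had 6.98, 6.96 and 7.39 FPKM at 0.5 mg/L NAA, against 6.63, 6.22 and 5.57 FPKM at 0.1 mg/L NAA. Its libraries at 0.5 mg/L NAA were all the higher ones, by a small margin that did not pass (log2 fold change 0.19, 95% interval -0.05 to 0.42, adjusted p = 0.17 in limma) unless each library was rescaled to the same total (log2 fold change 0.35, adjusted p = 0.0231). At Niben261Chr06g0220005 the treatments overlapped (log2 fold change 0.05, 95% interval -0.35 to 0.44). AIL5 and AIL6 share an annotation in the table, since the 6 loci that carry the term for auxin signalling in phyllotactic patterning are all of the AIL5 and AIL6 loci.

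ANT was the most highly expressed name at 0.1 mg/L NAA and contributed most to the family's sum in all but 2 libraries. Of its 6 loci, 4 were tested, of which 2 were lower at 0.5 mg/L NAA and 2 did not pass. Niben261Chr11g0769001, on chromosome 11, the highest of the ANT loci, had 44.0, 44.1 and 35.8 FPKM at 0.5 mg/L NAA, against 50.0, 48.5 and 53.6 FPKM at 0.1 mg/L NAA. The 3 libraries at 0.5 mg/L NAA were all the lower ones, replicate 3 most, and the log2 fold change was -0.29 (SE 0.10, adjusted p = 0.044 in limma). Niben261Chr19g0465007, on chromosome 19, had 38.3, 33.5 and 29.4 FPKM at 0.5 mg/L NAA, against 41.7, 45.8 and 47.2 FPKM at 0.1 mg/L NAA. Again no library overlapped, and the log2 fold change was -0.41 (SE 0.11, adjusted p = 0.018 in limma).

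The other ANT loci gave smaller or less even differences. Niben261Chr07g0644003 had 9.80, 6.96 and 6.60 FPKM at 0.5 mg/L NAA, against 10.6, 9.65 and 11.5 FPKM at 0.1 mg/L NAA. Replicate 1 at 0.5 mg/L NAA overlapped the other treatment, and the log2 fold change of -0.41 (SE 0.15) did not pass (adjusted p = 0.059 in limma) but did without that library (-0.57, adjusted p = 0.00837). Niben261Chr15g0930003 was level, with 30.7, 32.8 and 29.0 FPKM at 0.5 mg/L NAA, against 32.2, 31.7 and 33.0 FPKM at 0.1 mg/L NAA (log2 fold change -0.07, 95% interval -0.24 to 0.10).

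The ANT calls depended on how the libraries were scaled. When libraries were brought to the same total, the log2 fold changes were -0.11 at Niben261Chr11g0769001 (adjusted p = 0.381 in limma) and -0.22 at Niben261Chr19g0465007 (adjusted p = 0.114), and Niben261Chr15g0930003 turned to 0.12. The first of these loci lost its call in 9 of 14 settings, among them the omission of any 1 replicate at 0.1 mg/L NAA (adjusted p = 0.107, 0.0825 and 0.131) or of replicate 3 at 0.5 mg/L NAA (0.0774), and the second without replicate 2 or 3 at 0.1 mg/L NAA (0.0649 and 0.0642).

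Of the miR172-targeted type, TOE3 was higher at 2 of 3 tested loci. In Arabidopsis, TOE3 acts with APETALA2 on the gene for the floral organ identity factor AGAMOUS. Niben261Chr13g0497003, on chromosome 13, the highest of them, had 49.7, 51.5 and 42.6 FPKM at 0.5 mg/L NAA, against 36.8, 33.8 and 40.3 FPKM at 0.1 mg/L NAA (log2 fold change 0.37, SE 0.10, adjusted p = 0.022 in limma). Its lowest library at 0.5 mg/L NAA was close to the highest at 0.1 mg/L NAA, and the call was lost without replicate 1 or 2 of either treatment (adjusted p = 0.056 and 0.0501 at 0.5 mg/L NAA, 0.0703 and 0.0828 at 0.1 mg/L NAA). Niben261Chr10g1122005, on chromosome 10, had 18.5, 14.6 and 16.9 FPKM at 0.5 mg/L NAA, against 11.7, 12.9 and 11.3 FPKM at 0.1 mg/L NAA. The treatments did not overlap, and the log2 fold change of 0.45 (SE 0.11, adjusted p = 0.013 in limma) passed in all 14 other settings, with an adjusted p between 0.00293 and 0.0499. Apart from the RAV1-like gene, it was the only one of the 10 called members that passed in every setting in which it was tested.

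These higher TOE3 loci share 1 protein match, so reads of near-identical copies could have been divided between them by the authors' counting. The remaining tested locus of the name, Niben261Chr07g0922001, lay in the other direction, with 20.6, 20.8 and 21.0 FPKM at 0.5 mg/L NAA, against 22.4, 23.3 and 24.4 FPKM at 0.1 mg/L NAA. Its libraries were evenly grouped and did not overlap, and the change was small and did not pass (log2 fold change -0.16, SE 0.07, adjusted p = 0.10 in limma). With libraries rescaled to the same total it was 0.03.

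APETALA2 itself gave 1 higher, 1 lower and 5 loci that did not pass, of 7 tested. The higher one, Niben261Chr04g0332014 on chromosome 4, was weak, with 1.09, 2.03 and 1.20 FPKM at 0.5 mg/L NAA, against 0.45, 0.45 and 0.53 FPKM at 0.1 mg/L NAA. The lowest library at 0.5 mg/L NAA was still above the highest at 0.1 mg/L NAA, and the log2 fold change was 0.70 (SE 0.18, adjusted p = 0.018 in limma), or 1.37 with a pseudocount of 0.1. This call was lost without replicate 1 or 2 at 0.1 mg/L NAA (adjusted p = 0.0587 and 0.059).

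The lower one, Niben261Chr01g0007001 on chromosome 1, had 3.06, 1.68 and 2.61 FPKM at 0.5 mg/L NAA, against 3.66, 4.22 and 4.43 FPKM at 0.1 mg/L NAA. The treatments did not overlap, and the log2 fold change was -0.58 (SE 0.17, adjusted p = 0.030 in limma). The call of Niben261Chr01g0007001 was lost without any 1 library other than replicate 1 at 0.5 mg/L NAA (adjusted p = 0.0505 and 0.0526 without replicates 2 and 3 at 0.5 mg/L NAA, and 0.0576, 0.0911 and 0.0936 without replicates 1, 2 and 3 at 0.1 mg/L NAA) and with libraries rescaled to the same total (-0.43, adjusted p = 0.0782).

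The APETALA2 locus with the highest mean over all 6 libraries, Niben261Chr12g0257009, had 9.07, 8.91 and 6.60 FPKM at 0.5 mg/L NAA, against 9.76, 8.64 and 8.62 FPKM at 0.1 mg/L NAA. Its treatments overlapped (log2 fold change -0.13, 95% interval -0.44 to 0.17, adjusted p = 0.45 in limma). The other 4 loci that did not pass lay between -0.18 and 0.27, and the highest of these, Niben261Chr15g0158004, had every library at 0.5 mg/L NAA above those at 0.1 mg/L NAA (adjusted p = 0.077). It passed with libraries rescaled to the same total (0.44, adjusted p = 0.0138) and without replicate 1 at 0.5 mg/L NAA (0.35, adjusted p = 0.0453).

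The loci named after Arabidopsis gene numbers gave 1 higher locus of 8 tested. At1g79700 is the gene of WRINKLED4 and At1g16060 that of WRINKLED3, relatives of the seed oil regulator WRINKLED1. The higher locus was Niben261Chr05g1171018 of At1g79700, on chromosome 5, with 0.78, 0.88 and 0.78 FPKM at 0.5 mg/L NAA, against 0.15, 0.22 and 0.40 FPKM at 0.1 mg/L NAA. It was weak in both treatments and did not overlap between them (log2 fold change 0.53, SE 0.16, adjusted p = 0.031 in limma, and 1.42 with a pseudocount of 0.1). The call of Niben261Chr05g1171018 was lost without replicate 1 or 2 at 0.1 mg/L NAA (adjusted p = 0.0983 and 0.0877). The main At1g79700 locus, Niben261Chr10g0355011, had 5.45, 3.75 and 5.80 FPKM at 0.5 mg/L NAA, against 5.93, 5.86 and 5.95 FPKM at 0.1 mg/L NAA. Replicate 2 at 0.5 mg/L NAA was lowest, the other libraries were close, and the locus did not pass (log2 fold change -0.22, adjusted p = 0.27 in limma).

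All 3 At1g16060 loci were highest in replicate 1 and lowest in replicate 2 within the libraries at 0.5 mg/L NAA. The highest of them, Niben261Chr08g0135006, had 11.4, 4.44 and 7.55 FPKM at 0.5 mg/L NAA, against 4.26, 4.30 and 5.65 FPKM at 0.1 mg/L NAA. The treatments overlapped through replicate 2 at 0.5 mg/L NAA, and the locus did not pass (log2 fold change 0.54, SE 0.28, adjusted p = 0.15 in limma). Without that library the log2 fold changes of Niben261Chr08g0135006 and Niben261Chr18g1461006 were 0.85 and 0.50 (adjusted p = 0.0128 and 0.0264), against 0.54 and 0.38 with it. The third, Niben261Chr13g0744002, had a log2 fold change of -0.36 (95% interval -0.77 to 0.05). At2g41710, which encodes a little-studied AP2-type protein, had its highest locus at Niben261Chr07g0879004, with 2.61, 2.51 and 2.23 FPKM at 0.5 mg/L NAA, against 3.33, 2.98 and 3.07 FPKM at 0.1 mg/L NAA. Its libraries were all lower at 0.5 mg/L NAA and the change did not pass (log2 fold change -0.26, SE 0.12, adjusted p = 0.11 in limma).

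**Figure D2:**
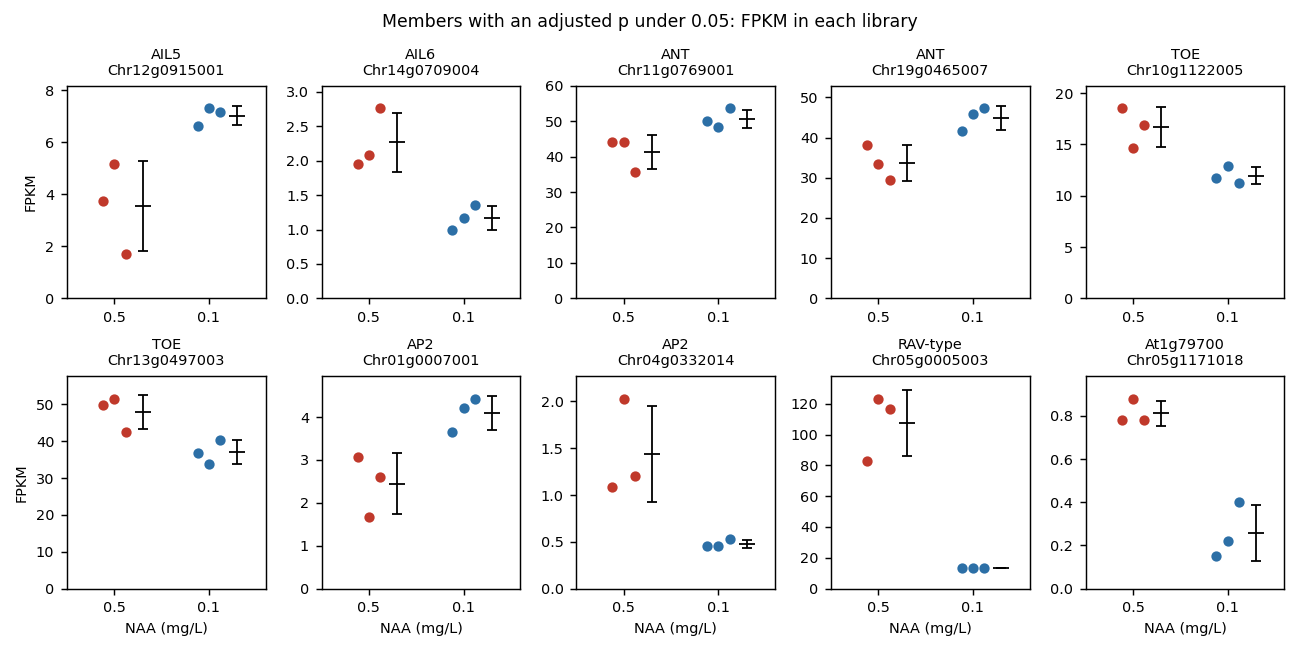
FPKM (vertical axis, from 0, scaled separately in each panel) of the 10 loci with an adjusted p under 0.05, in each library at 0.5 mg/L NAA (red) and 0.1 mg/L NAA (blue), with the mean ± SD of the 3 libraries beside the points. The treatments do not overlap in any panel, and the RAV1-like panel shows 82.8 to 123.4 FPKM at 0.5 mg/L NAA and 13.1 to 13.3 FPKM at 0.1 mg/L NAA.

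A further 13 loci had a mean under 0.5 FPKM and were not tested, and no library of any of them exceeded 0.95 FPKM. They were both remaining PLT2 loci, all 4 AIL1 loci, 1 AIL6, 2 ANT, 2 TOE3, 1 APETALA2 and 1 At1g79700 locus. The remaining PLT2 loci, Niben261Chr02g0060004 and Niben261Chr03g1405002, were listed at 0 in every library at 0.5 mg/L NAA and in 2 of 3 libraries at 0.1 mg/L NAA, where their other values were 0.14 and 0.04 FPKM. The weak AIL6 locus, Niben261Chr15g0774008, was listed at 0 in every library except replicate 3 at 0.1 mg/L NAA, with 0.20 FPKM.

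AIL1, which is expressed in dividing tissues of Arabidopsis, was weak at every locus. Its 4 loci summed to 0.44, 0.39 and 0.15 FPKM at 0.5 mg/L NAA, against 1.10, 0.90 and 0.53 FPKM at 0.1 mg/L NAA. The sums did not overlap, and these are levels at which a value can rest on very few reads. One of the loci, Niben261Chr12g1508003, was listed at 0 in all libraries at 0.5 mg/L NAA and had 0.14, 0.14 and 0.25 FPKM at 0.1 mg/L NAA. The ANT locus Niben261Chr07g0632010 was the reverse, with 0.20, 0.41 and 0.20 FPKM at 0.5 mg/L NAA, and was listed at 0 in all libraries at 0.1 mg/L NAA. When no minimum was set and all 39825 loci were tested, these 2 and the TOE3 locus Niben261Chr15g1187003 passed (adjusted p = 0.045, 0.024 and 0.035 in limma). That TOE3 locus had 0.11, 0.00 and 0.11 FPKM at 0.5 mg/L NAA, against 0.22, 0.44 and 0.52 FPKM at 0.1 mg/L NAA. Its neighbour in the annotation, Niben261Chr15g1187002, has the same protein match and overlapped between the treatments, with 0.11, 0.66 and 0.58 FPKM at 0.5 mg/L NAA and 0.82, 0.22 and 0.07 FPKM at 0.1 mg/L NAA.

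**Figure D3:**
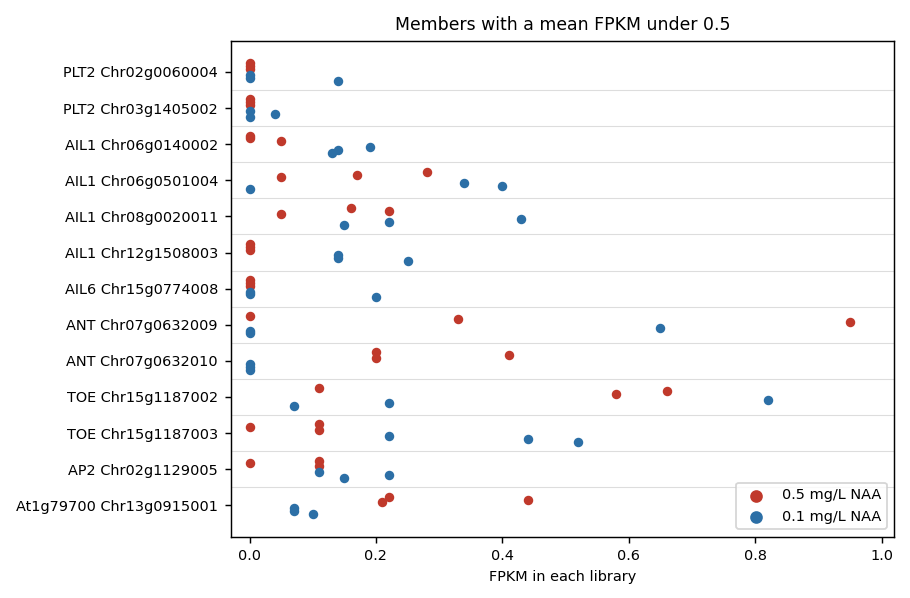
FPKM in each library (horizontal axis) of the 13 loci with a mean under 0.5 FPKM, with 0.5 mg/L NAA in red above 0.1 mg/L NAA in blue. All 4 AIL1 loci lie at or under 0.28 FPKM at 0.5 mg/L NAA and at or under 0.43 FPKM at 0.1 mg/L NAA, and the highest single value, 0.95 FPKM, is of an ANT locus at 0.5 mg/L NAA.

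The members varied more between libraries at 0.5 mg/L NAA than at 0.1 mg/L NAA. The SD on the log2(FPKM + 1) scale was larger at 0.5 mg/L NAA in 23 of 29 tested members (79.3%), against 65.2% of all loci tested. Its median was 0.228 at 0.5 mg/L NAA and 0.113 at 0.1 mg/L NAA over the members, and 0.151 and 0.103 over all loci. Among the libraries at 0.5 mg/L NAA, replicate 3 was lowest in 13 members (44.8%), replicate 2 in 10 (34.5%) and replicate 1 in 6 (20.7%), the same order as over all loci tested (39.3%, 32.3% and 28.3%).

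Some members are probable copies of 1 gene. In 10 sets of 2 loci the protein match was the same entry, and in 5 of these both loci were tested. The TOE3 set on chromosomes 10 and 13 was the only one in which both loci passed in 1 direction, and in the other 4 sets neither locus passed. Values of such copies are uncertain where the authors' counting could split reads between them.

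As deposited, the sums by name lay in opposite directions for ANT and TOE3. ANT summed to 123.0, 118.1 and 101.9 FPKM at 0.5 mg/L NAA, against 135.1, 135.6 and 145.2 FPKM at 0.1 mg/L NAA. TOE3 summed to 89.0, 87.6 and 81.2 FPKM at 0.5 mg/L NAA, against 72.0, 70.6 and 76.5 FPKM at 0.1 mg/L NAA. The treatments did not overlap for either name, with ANT below and TOE3 above at 0.5 mg/L NAA. In TPM, which brings the libraries to equal totals, the ANT sums overlapped (121.6, 116.3 and 103.3 at 0.5 mg/L NAA, against 117.5, 117.4 and 127.3 at 0.1 mg/L NAA), while those of TOE3 stayed apart (82.3 to 88.1, against 61.1 to 67.1). AIL6 summed to 15.6, 13.9 and 14.4 FPKM at 0.5 mg/L NAA, against 12.8, 11.7 and 12.7 FPKM at 0.1 mg/L NAA, and AIL5 to 5.01, 10.1 and 2.53 FPKM, against 10.6, 11.3 and 12.9 FPKM. The AIL5 sums also overlapped in TPM. APETALA2 summed to 39.2, 35.6 and 31.8 FPKM at 0.5 mg/L NAA and to 37.0, 35.1 and 38.4 FPKM at 0.1 mg/L NAA, and overlapped. Shares of the family's sum depend on the RAV1-like locus, so they are given over the other 41 loci. ANT held 39.6%, 40.8% and 38.7% of that sum at 0.5 mg/L NAA, against 45.4%, 46.0% and 45.8% at 0.1 mg/L NAA, and TOE3 held 28.7%, 30.2% and 30.9%, against 24.2%, 24.0% and 24.1%. These sums are a description with no test.

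**Figure D4:**
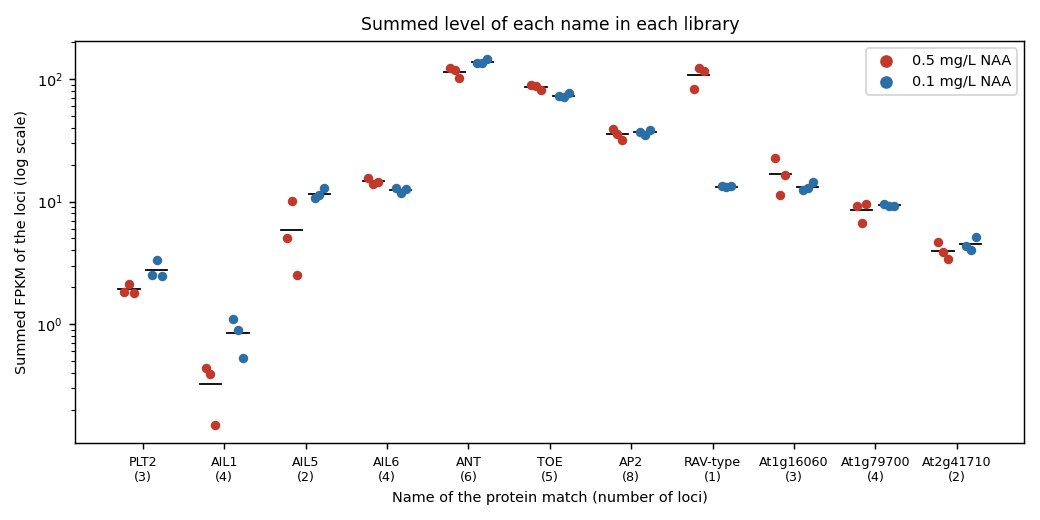
Summed FPKM as deposited of the loci of each name (vertical axis, log scale) in each library at 0.5 mg/L NAA (red) and 0.1 mg/L NAA (blue), with the number of loci in parentheses and a line at the mean of 3 libraries. RAV-type stands at 82.8 to 123.4 FPKM against 13.1 to 13.3 FPKM, ANT at 101.9 to 123.0 FPKM against 135.1 to 145.2 FPKM, and APETALA2 overlaps.

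The scaling of the libraries bears on the direction of the small changes. Rescaled to the same total, all loci had a median log2 fold change of 0.19, against 0.02 as deposited, and 34.5% of all loci tested were higher and 12.2% lower. On that scale 9 members were higher and 0 were lower, and 6 of the 10 calls were kept. The median over the members was then 0.04, against -0.13 as deposited, and the medians of APETALA2 (0.04, against -0.13) and At2g41710 (0.05, against -0.08) changed sign too. Those of ANT (-0.16), AIL5 (-0.75), AIL6 (0.35) and TOE3 (0.55) did not. Relative to the median of all loci, the members' median was lower on both scales.

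Genes that work with these factors were examined by lists of words in the protein description. TOPLESS proteins are co-repressors that in Arabidopsis are recruited by APETALA2. At 0.5 mg/L NAA, 7 of 9 tested loci were higher and 0 lower, where 21.7% of all loci tested were higher and 20.2% lower. The median log2 fold change was 0.34, where that of all loci was 0.02. With libraries rescaled to the same total 8 were higher, and with quantile normalization 6 were. The locus with the largest change, Niben261Chr12g0043002, had 20.2, 20.3 and 22.8 FPKM at 0.5 mg/L NAA, against 9.65, 10.02 and 12.5 FPKM at 0.1 mg/L NAA (log2 fold change 0.92, adjusted p = 0.00099 in limma). Its treatments were well separated. AUXIN RESPONSE FACTOR 5 and 19 are activators of auxin-responsive genes, and ARF5 acts upstream of PLETHORA genes in the Arabidopsis embryo. Of 9 tested loci, 5 were higher and 0 lower, with a median of 0.40. When libraries were brought to equal totals, 8 of 8 tested loci were higher, with a median of 0.61. On that scale 34.5% of all loci tested were higher, and their median was 0.19. The locus that then fell under the minimum, Niben261Chr14g0557002, had a log2 fold change of 0.03 as deposited. With quantile normalization 4 of 9 were higher. The ARF5 locus Niben261Chr11g0637005 had 41.0, 38.1 and 49.3 FPKM at 0.5 mg/L NAA, against 25.4, 26.4 and 25.3 FPKM at 0.1 mg/L NAA (log2 fold change 0.71, adjusted p = 0.0017 in limma). Every library at 0.5 mg/L NAA was above those at 0.1 mg/L NAA.

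D-type cyclins of the D3 group sustain proliferation in growing organs and are tied to ANT in Arabidopsis. They gave 3 lower and 0 higher of 6 tested loci (median -0.22), where 20.2% of all loci tested were lower. Niben261Chr09g1278001 had 43.2, 41.3 and 34.0 FPKM at 0.5 mg/L NAA, against 76.4, 75.4 and 75.6 FPKM at 0.1 mg/L NAA (log2 fold change -0.93, adjusted p = 0.00056 in limma). With libraries rescaled to the same total the D3 cyclins gave 2 lower loci and 1 higher locus. SHORT-ROOT, which patterns the root with the PLETHORA genes, was lower at 1 of 2 tested loci, the weak Niben261Chr04g0475004. It had 0.42, 0.72 and 0.35 FPKM at 0.5 mg/L NAA, against 1.36, 1.30 and 1.45 FPKM at 0.1 mg/L NAA (log2 fold change -0.67, adjusted p = 0.012 in limma). Its mean at 0.5 mg/L NAA, 0.497 FPKM, was under the minimum level. The much more highly expressed locus, Niben261Chr07g0624016, had 16.32, 25.23 and 15.42 FPKM at 0.5 mg/L NAA, against 25.16, 26.01 and 24.5 FPKM at 0.1 mg/L NAA. Its treatments overlapped and it did not pass (log2 fold change -0.42, adjusted p = 0.082 in limma). The SCARECROW loci, the WOX5 locus and the root meristem growth factor locus were under the minimum level.

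SQUAMOSA PROMOTER-BINDING factors (SPL), which promote the change of phase that miR172 and its AP2-type targets take part in, had called loci in both directions, in shares near those of all loci tested. Of 32 tested loci, 8 were higher and 7 lower, with a median of -0.04 (0.11 with libraries rescaled to the same total). With quantile normalization 6 were higher and 12 lower. Those that changed by 1 or more were 4 loci, all lower at 0.5 mg/L NAA, where 2.62% of all loci tested were lower by as much. The largest change was at Niben261Chr12g0583006 (log2 fold change -1.44, adjusted p = 0.00027 in limma). Of the flowering genes SOC1, HEADING DATE 3A and FLOWERING LOCUS T, 2 of 8 tested loci were lower and 0 higher, against 1 lower and 2 higher with libraries rescaled to the same total. For this list and those that follow, the shares over all loci tested were 20.2% lower and 21.7% higher. With libraries rescaled they were 12.2% lower and 34.5% higher. The boundary genes CUP-SHAPED COTYLEDON gave 0 calls among 7 tested loci in limma (2 higher and 1 lower at an unadjusted p under 0.05), and 2 higher loci with libraries rescaled to the same total. Of the embryo regulators AGL15 and FUS3, 1 of 3 tested loci was lower, the weak AGL15 locus Niben261Chr13g1252008 (0.247 against 0.813 FPKM). It reached the minimum level only through the libraries at 0.1 mg/L NAA. With libraries rescaled that locus fell under the minimum level, and of the 2 loci still tested 0 were lower and 1 was higher. The RAP2-7-like loci, AP2-type factors whose description fell outside the words used to choose the members, had 2 higher loci of 4 tested, or 1 with quantile normalization. They summed to 201.5 to 227.1 FPKM at 0.5 mg/L NAA and to 190.5 to 195.1 FPKM at 0.1 mg/L NAA. That is more than any name among the members, and the sums and shares above leave them out.

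**Figure D5:**
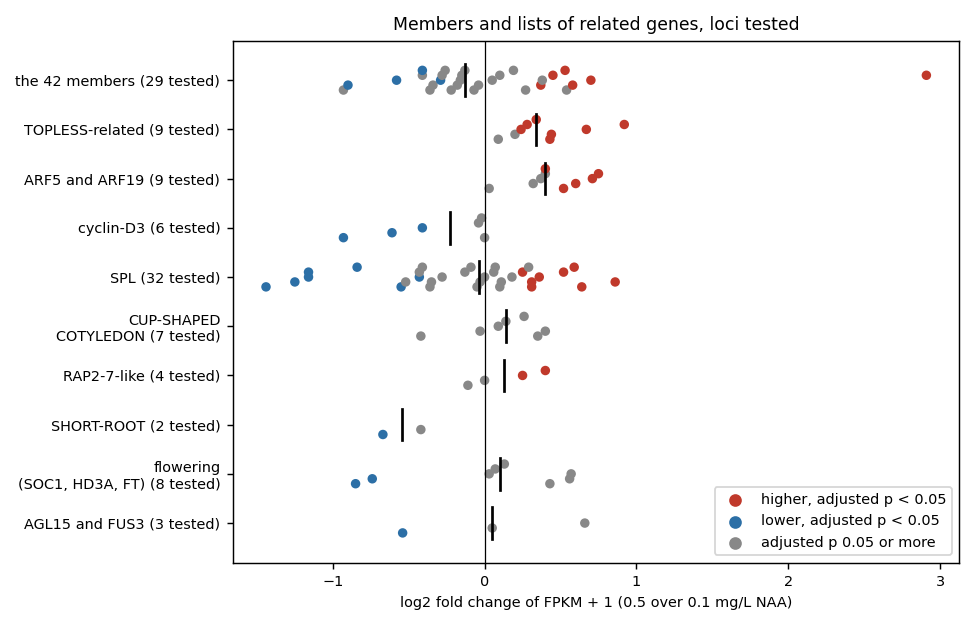
Log2 fold change of FPKM + 1 (0.5 over 0.1 mg/L NAA, horizontal axis) of every tested locus of the family and of the related lists, red where higher and blue where lower with an adjusted p under 0.05, with a black line at each list's median. The TOPLESS and ARF medians lie at 0.34 and 0.40, the D3 cyclin median at -0.22, and the median of the 29 members at -0.13.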

How the data were processed

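Expression was deposited by the authors as FPKM in 1 table of 6 RNA-seq libraries, rounded to hundredths, with the protein match and gene ontology terms of each locus. The sample labels gave the treatment and replicate. The study names fastp, HISAT2, StringTie and RSEM on Niben261 for its libraries of later stages, and the steps for the 2-week libraries are not given in the sources used here. The table holds no read counts, so depth is unknown except in relative terms, estimated from how far apart the lowest FPKM values lie, and no interval for counting error can be given.

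The table was fitted whole with limma 3.58.1 in R 4.3.3 (with a mean-variance trend), on log2 values after adding 1 FPKM, with a minimum mean of 0.5 FPKM and Benjamini-Hochberg adjustment over 32443 loci. Differentially expressed loci also had a |log2FC| of at least 1, the study's threshold. Values in every library are given for members with an adjusted p under 0.05 and for the highest locus of each name, and any other member may be named, since the members are set by words of the description. Members and lists were chosen with earlier results of these data known. The words for the embryo regulators and the B-type cyclins were held to word boundaries after descriptions were read. The loci named from the related lists, other members, the B-type cyclin locus and the casparian strip locus were chosen after their values were seen.

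Alternatives were a pseudocount of 0.1, no minimum level, a minimum of 1 FPKM, rescaling to equal totals (TPM), quantile normalization, median-of-ratios scaling, a fit without the trend, a replicate block, and each library left out in turn, 14 in all. The fit was tested on simulated data with the same spread in both treatments and changes above 1 on the log2 scale at well expressed loci. Smaller changes, and changes at weak loci, were not simulated, so that test does not cover most of the calls here. Plots were made in Python 3.11.15 with matplotlib 3.10.9.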

Additional observations from a re-analysis of the deposited data

How the results depend on the processing

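Over the single members and all alternatives, 340 values kept their direction and side of the threshold, 36 lost the threshold, 12 gained it and 13 changed sign. Members higher numbered 6 and members lower 4. With a pseudocount of 0.1, 3 members were higher and 1 was lower by 1 or more on the log2 scale, against 1 and 0. With libraries rescaled to the same total (TPM), 0 members were lower. With 1 library left out, 2 to 6 members were higher and 0 to 5 lower, and 1 to 1 higher and 0 to 2 lower by 1 or more. Without replicate 2 at 0.5 mg/L NAA these were both AIL5 loci. The signs that changed were all of small, uncalled values. With TPM they were 0.12 (Niben261Chr15g0930003), 0.03 (Niben261Chr07g0922001), 0.02 (Niben261Chr04g0991001), 0.09 (Niben261Chr07g0569002) and 0.04 (Niben261Chr12g0257009), and with quantile normalization -0.07 (Niben261Chr06g0220005). With 1 library left out, Niben261Chr06g0220005 ranged over -0.11 to 0.17 (with -0.05 between), Niben261Chr07g0569002 over -0.16 to 0.05 (with 4.8e-05 and 0.04 between), Niben261Chr15g1328012 over -0.05 to 0.29 and Niben261Chr04g0991001 over -0.34 to 0.10. With the replicate number as a block, 4 members were higher and 2 lower, and 6 of the 10 calls were kept. No source says whether the numbers pair the libraries. The deviations of same-numbered libraries correlated by only 0.0216, 0.00977 and 0.00958, although each library correlated best with its own number. With 3 libraries in each treatment, such small correlations cannot settle whether they are paired. The causes were not tested. Values under about 1 FPKM rest on an unknown and probably small number of reads.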
